A study of Mus musculus with 2 samples.

Results

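Pou5f1 (Oct4), Sox2, Nanog and Sall4 are 4 transcription factor genes, chosen by name from the 32285 genes counted in each of 2 single-cell RNA libraries of mouse embryonic stem cells. Both libraries are of R1, an established mouse embryonic stem cell line, grown in N2B27 medium and collected after 72 hours. LB cells received LIF and BMP4 and grew on gelatin. LBPXRS cells also received LIF and BMP4, together with PD0325901, Xav939, Resorcyclic lactone and SB431542, and grew on fibronectin, so the added compounds and the surface cannot be told apart. PD0325901 inhibits the kinase MEK, Xav939 dampens WNT signalling through tankyrase, and SB431542 inhibits the type I receptors of NODAL and activin. The series title poses the question of how FGF, TGF-beta and WNT signalling limit the response of these cells to BMP4.

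POU5F1 and SOX2 bind DNA side by side at an octamer and a SOX motif and keep embryonic stem cells pluripotent together. Pou5f1 is also needed for the inner cell mass and stays on in the epiblast and early primitive streak, whereas SOX2 persists in the neural lineage and is switched off in mesoderm. NANOG is a homeodomain protein that stabilises the naive state, varies between cells in serum or LIF cultures, and returns in the posterior epiblast at gastrulation. SALL4 is a zinc finger protein that binds the NuRD repressor complex, partners POU5F1 and NANOG, and is also made in early mesoderm and limb.

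Each condition had 1 library, so there was no test between conditions and no p-value. The 95% intervals are exact Poisson or binomial ones for counting error, and leave out the spread between cultures. LB held 1783 cells that passed the filters with a median of 25418 UMIs (unique molecular identifiers, 1 per captured RNA molecule), and LBPXRS held 2705 cells with a median of 19058. The kept cells of both libraries shared 8 barcodes. A cluster of 27 LB cells and a cluster of 76 LBPXRS cells stood apart, with a median of 0.0835% and 0.0422% of their UMIs from mitochondrial genes against 2.72% and 2.54% over their libraries. Results that rest on these cells are given with and without them. Defining genes of naive embryonic stem cells were present in both libraries (Zfp42 at 401 CPM in LB and 515 CPM in LBPXRS, where CPM is a gene's UMIs over all UMIs of the kept cells, scaled to a total of 1000000).

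The start regions of the members are shown because POU5F1, SOX2 and NANOG are textbook regulators of their own and of one another's genes. The RefSeq promoter table (GRCm38.p6) held 3 of the 4 members, with 250 bases before and 50 after each start site. Sall4 lies at chr2:168748332-168767943 on the minus strand. Capitals mark matches on either strand to TTTGCAT (octamer), ACAATG (SOX) or AGGTCA (nuclear receptor half-site), the 3 motifs searched along with the joined pair TTTGCATNACAATG, which contains the octamer and SOX letters.
Nanog, chr6:122707315-122707614, plus strand: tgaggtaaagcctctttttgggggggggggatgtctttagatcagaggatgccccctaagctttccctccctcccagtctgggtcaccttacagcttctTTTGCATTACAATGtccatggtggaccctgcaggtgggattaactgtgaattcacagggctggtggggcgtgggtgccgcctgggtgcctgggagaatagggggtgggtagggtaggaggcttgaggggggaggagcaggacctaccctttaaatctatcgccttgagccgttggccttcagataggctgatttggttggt
Sox2, chr3:34649745-34650044, plus strand: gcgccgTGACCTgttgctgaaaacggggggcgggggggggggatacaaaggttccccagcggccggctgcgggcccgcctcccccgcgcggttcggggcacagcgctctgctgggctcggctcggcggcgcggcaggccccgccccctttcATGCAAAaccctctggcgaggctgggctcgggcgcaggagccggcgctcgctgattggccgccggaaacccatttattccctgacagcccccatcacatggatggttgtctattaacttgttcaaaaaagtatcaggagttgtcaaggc
Pou5f1, chr17:35505782-35506081, plus strand: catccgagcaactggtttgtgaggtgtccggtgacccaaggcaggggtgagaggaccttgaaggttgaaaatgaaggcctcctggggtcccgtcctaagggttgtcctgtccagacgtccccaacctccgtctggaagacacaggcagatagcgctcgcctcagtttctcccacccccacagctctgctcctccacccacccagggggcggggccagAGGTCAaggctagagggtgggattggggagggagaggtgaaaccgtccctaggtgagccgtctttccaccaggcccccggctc

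The Nanog window held the joined octamer and SOX letters TTTGCATTACAATG, with the octamer starting 151 bases before the start site used here. Of 32851 promoters of the same length, 2 held the joined pair, and both were windows of Nanog that overlap. The Sox2 window held the octamer on the opposite strand, starting 99 bases before its start site, and the half-site at 244 bases before it. In the Pou5f1 window shown the half-site began 33 bases before the start site. The table's other Pou5f1 window, at a start site inside the gene, held the SOX letters 158 bases before that site, and its other Nanog window held a half-site besides the joined pair. Over all promoters the octamer was found in 4.63%, the SOX letters in 12.6% and the half-site in 16.3%, so single matches are common. These matches describe letters in a window and say nothing of binding.

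In the gene annotation (GENCODE, GRCm38) Sox2 is a single-exon gene at chr3:34650405-34652461, inside the long noncoding gene Sox2ot on the same strand, with no shared exon. Sox2ot had 34 UMIs in LB and 32 in LBPXRS. Nanog lies at chr6:122707489-122714633 and Pou5f1 at chr17:35506018-35510772. Exons of Pou5f1 and of Sall4 overlap exons of antisense models, Gm19553 and Gm14261. Whether the counting used strand is not given in the sources used here, so reads of each pair may not be told apart. The related gene Pou5f2 had 61 and 68 UMIs.

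Pou5f1, Sox2 and Nanog were higher in LBPXRS and Sall4 was lower. LB cells held 719 CPM of Pou5f1 (interval 711 to 727) where LBPXRS cells held 990 CPM (981 to 999), a log2 ratio of 0.46. For Sox2 the levels were 123 CPM (120 to 126) and, in LBPXRS, 232 CPM (228 to 236), a log2 ratio of 0.91. The widest difference was that of Nanog, with 75.2 CPM (72.7 to 77.8) in the LB library and 177 CPM (173 to 181) in LBPXRS, a log2 ratio of 1.22. Sall4 went the other way, from 106 CPM (103 to 109) in the LB library to 59.1 CPM (57.1 to 61.3) in the other, a log2 ratio of -0.83. None of the counting intervals of the libraries overlapped for any of the 4 genes.

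Ratios are log2 of CPM plus 1 in LBPXRS over CPM plus 1 in LB. Across the 7661 genes with at least 10 CPM in either library, 7.98% had a level in LBPXRS at least 2 times that in LB and 10.4% at most 0.5 times, with a median log2 ratio of -0.17. Nanog was the only member past 2-fold in either direction. Its ratio lay above that of 94.1% of these genes, that of Sox2 above 90.7% and that of Pou5f1 above 81.4%, and 14.6% of the genes had a lower ratio than Sall4. With TMM scaling, which brought the median of all genes to -0.02, the ratios were 0.62 for Pou5f1, 1.06 for Sox2, 1.38 for Nanog and -0.68 for Sall4, so Sox2 then passed 2-fold as well.

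The ratios of Pou5f1, Sox2 and Nanog were smaller when LB was limited to cells without lineage markers. In the 527 LB cells with no UMI of any lineage marker list (streak, nascent mesoderm, Hand1 mesoderm, trophoblast, endoderm, neural and fibroblast genes), Sox2 was at 217 CPM, which put LBPXRS at a log2 ratio of 0.09 (interval 0.04 to 0.15) to them. For Pou5f1, at 872 CPM in those cells, the ratio was 0.18 (0.15 to 0.21). Nanog, at 106 CPM in the lineage-negative cells, was still lower than in LBPXRS by a log2 ratio of 0.74 (0.67 to 0.82). The Sall4 ratio moved little, to -0.78 (-0.88 to -0.70), from 102 CPM in these LB cells. Of 7291 genes in this comparison, 8.71% were past 2-fold upwards in LBPXRS and 6.53% downwards, and no member was past 2-fold. LBPXRS was not limited here, and its 948 lineage-negative cells had 1003 CPM of Pou5f1, 220 of Sox2, 163 of Nanog and 55.8 of Sall4.

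**Figure D1:**
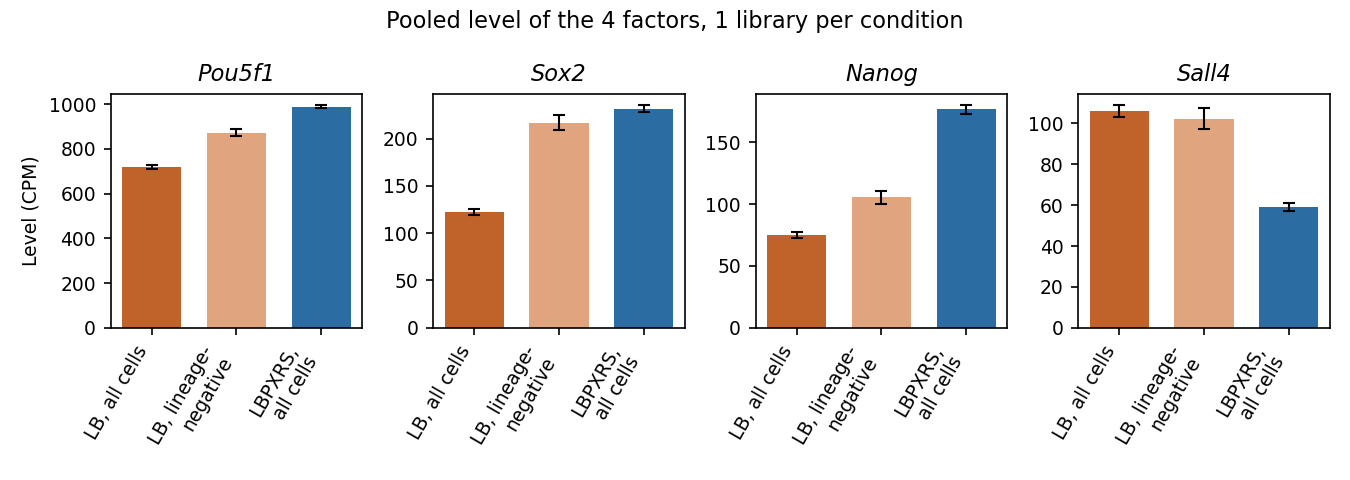
Level of each gene in CPM (vertical axes from 0, a scale per gene) over all LB cells, LB cells with no lineage marker UMI, and all LBPXRS cells. Bars are pooled values and error bars are exact 95% Poisson intervals; Sox2 reaches 217 CPM in lineage-negative LB cells beside 232 CPM in LBPXRS, while Nanog stays at 106 beside 177 CPM.

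At equal depth the factors were found in more LBPXRS cells, again with the exception of Sall4. Cells were thinned to 10000 UMIs, which left 1666 LB and 2509 LBPXRS cells (117 and 196 cells were shallower), and shares are means over 100 thinnings. Pou5f1 was detected in 91.5% of LB cells (interval 90.01% to 92.8%) and 99.9% of LBPXRS cells (99.7% to 99.98%). The share for Sox2 was 49.4% (47.0% to 51.9%) in LB and 83.4% (81.9% to 84.9%) in LBPXRS, a gap of 34.0 percentage points. Nanog was detected in 43.5% (41.1% to 45.9%) and 74.4% (72.6% to 76.1%) of cells, a gap of 30.9 points. For Sall4 the shares were 58.2% (55.8% to 60.6%) in LB and 43.1% (41.2% to 45.1%) in LBPXRS. Without thinning the LB shares were 94.3%, 58.9%, 61.8% and 80.3% for Pou5f1, Sox2, Nanog and Sall4, and the LBPXRS shares 99.5%, 88.9%, 86.8% and 62.6%. As a measure of background for Sox2, LB cells with at least 3 Hand1 mesoderm UMIs, a lineage known to lack it, still had a Sox2 UMI in 4.37% of cells at the same thinned depth (median before thinning 25683.5 UMIs, against 25418 in LB). Set against Sox2 in these cells, and taking free RNA to have the make-up of the whole library, which was not tested, at most 29.7 of the 220 CPM of Pou5f1 measured there, 3.11 of the 9.97 CPM of Nanog and 4.39 of the 130.5 CPM of Sall4 would be free RNA.

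Cells differed most from one another in LB. The Fano factor, the variance over the mean of the UMIs per cell, is 1 for counts that vary by sampling alone. For Pou5f1 it was 2.82 in LB at a mean of 6.97 UMIs per cell, and 1.60 in LBPXRS at a mean of 9.83. In LB the 107 genes with means within 1.5-fold of Pou5f1 had a median Fano factor of 1.59, and 16.8% of them exceeded it. In LBPXRS the median of 68 such genes was 1.73, above the value of Pou5f1 itself. Sox2 had a Fano factor of 2.27 in LB, where 5.53% of 904 like-mean genes were higher and their median was 1.18. Its value in LBPXRS was 1.57, beside a median of 1.24 over 439 genes.

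Nanog had a Fano factor above that of most like-mean genes in both cultures. Its Fano factor was 1.67 in LB and 1.60 in LBPXRS, where like-mean genes had medians of 1.13 and 1.18, and 7.67% and 6.22% of those genes were higher. Sall4 had the lowest Fano factors of the 4 genes in each library, 1.43 in LB and 1.13 in LBPXRS beside medians of 1.16 and 1.08, and 16.2% and 26.0% of like-mean genes were higher. The Fano factor scales with the mean, and the variance beyond sampling over the squared mean was lowest for Pou5f1 in both libraries (0.262 in LB and 0.0606 in LBPXRS, against 0.408 and 0.210 for Sall4). By this measure Nanog, at means of 0.767 and 1.77 UMIs, differed between the libraries, with 0.877 in LB and 0.339 in LBPXRS. For Sox2 the values were 1.04 and 0.239. Sampling alone at the LB mean would leave 0.0938% of cells without a Pou5f1 UMI, and 8.54% had none. For Sox2 in LB, sampling at a mean of 1.22 UMIs would leave 29.6% at 0, and 50.6% were at 0. In LBPXRS the measured Sox2 share at 0 was 16.6%, against 9.14% from sampling. The middle LB cell had 7 Pou5f1 UMIs, 0 Sox2 UMIs, 0 Nanog UMIs and 1 Sall4 UMI, and the middle LBPXRS cell had 10, 2, 1 and 0.

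**Figure D2:**
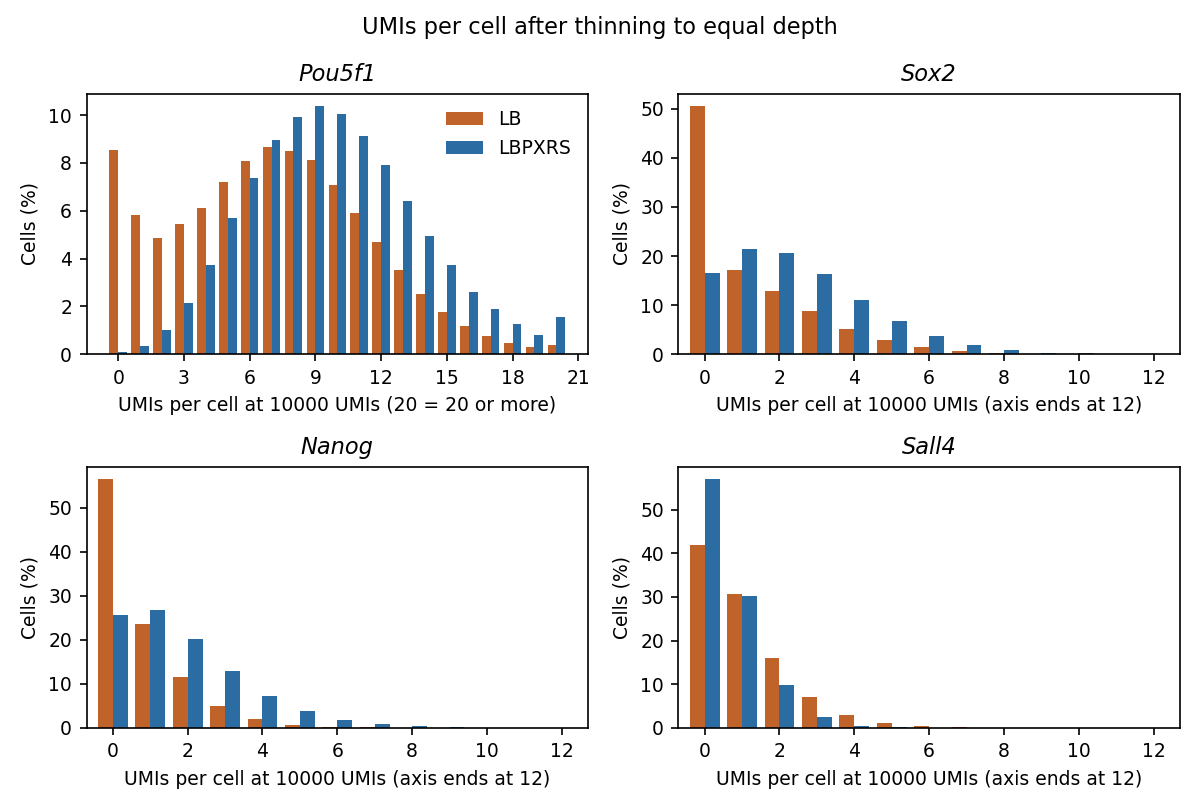
Share of cells (%) by the number of UMIs per cell of each gene after thinning to 10000 UMIs, for 1666 LB and 2509 LBPXRS cells, as the mean of 100 thinnings. LB has 8.54% of its cells at 0 Pou5f1 UMIs, where LBPXRS has 0.111%, and 50.6% of its cells at 0 Sox2 UMIs; the Pou5f1 axis gathers cells with 20 or more, and the other axes end at 12.

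All 4 genes were detected together in 17.3% of LB cells and 29.7% of LBPXRS cells at equal depth, and none in 3.03% and 0.0486%. Across LB cells Pou5f1, Sox2 and Nanog went together, with Pearson correlations of log counts of 0.39 for Pou5f1 and Sox2, 0.31 for Pou5f1 and Nanog and 0.30 for Sox2 and Nanog (1666 cells). The correlations of Sall4 over the same cells lay between 0.00 and 0.04. These are descriptions over cells that share 1 library, with no p. Within the 527 lineage-negative LB cells the correlations were smaller, at 0.09 for Pou5f1 and Sox2, 0.07 for Pou5f1 and Nanog and 0.14 for Sox2 and Nanog, while Pou5f1 and Sall4 had 0.10. In the 733 LB cells with at least 3 lineage UMIs over all lists they were 0.23, 0.36 and 0.18, and -0.06 for Pou5f1 and Sall4. In LBPXRS (2509 cells) Pou5f1 was nearly flat against the others, at 0.02 with Sox2 and 0.05 with Nanog, while Sox2 and Nanog correlated at 0.22 and Sox2 and Sall4 at 0.12. Weak correlations in such sparse counts are given as values only.

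Cells were then split by detection of 1 gene. LB cells with a Nanog UMI had a mean of 1.70 Sox2 UMIs and 8.37 Pou5f1 UMIs, against 0.847 and 5.90 in cells without one. Sall4 stood at 1.01 UMIs in Nanog-positive and 1.07 in Nanog-negative LB cells. In LBPXRS the Nanog split gave 2.59 and 1.82 UMIs for Sox2, 9.91 and 9.59 for Pou5f1, and 0.635 and 0.494 for Sall4. LB cells without a Pou5f1 UMI had Sox2 in 5.12% (interval 2.13% to 10.1%) and Nanog in 5.77% (2.56% to 10.96%) of cells, but Sall4 in 60.1% (51.6% to 68.2%), as against 58.0% of the cells with a Pou5f1 UMI.

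**Figure D3:**
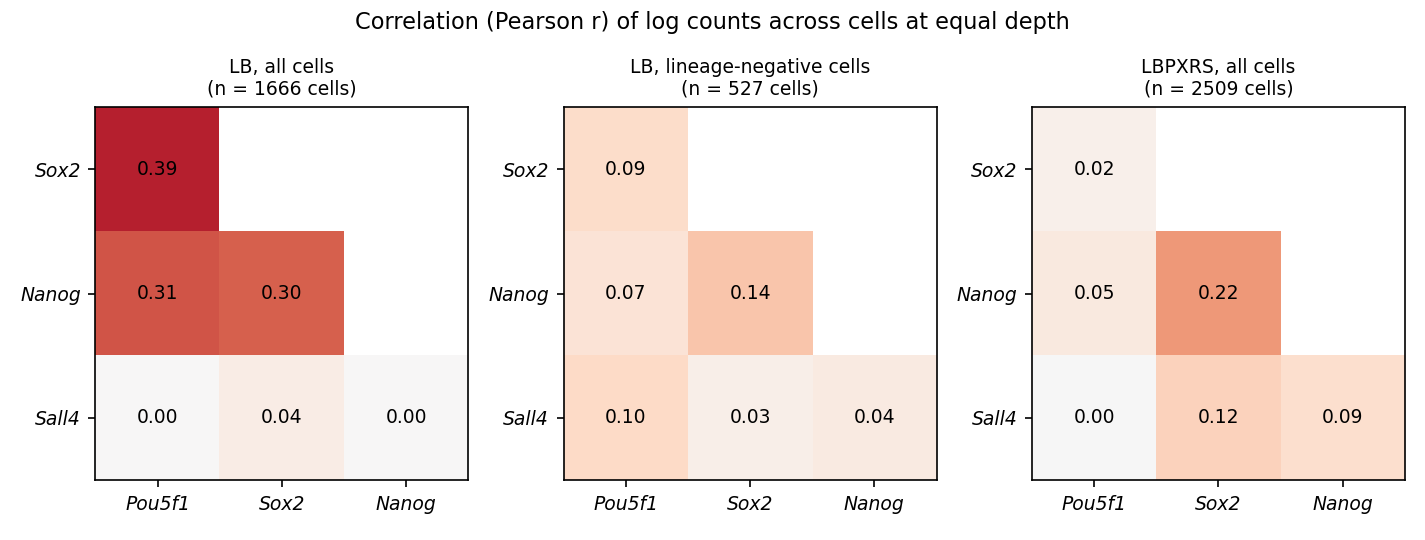
Pearson correlation of log counts at 10000 UMIs for the 6 pairs of genes, over all LB cells, lineage-negative LB cells and all LBPXRS cells (numbers are the correlations; red is positive, on a scale from -0.5 to 0.5, and blank cells are not pairs). The 3 pairs among Pou5f1, Sox2 and Nanog read 0.30 to 0.39 in LB and 0.07 to 0.14 in its lineage-negative cells.

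Among genes with a mean of at least 0.2 UMIs, the 3 most like each member across LB cells were named. For Sox2 they were Zfp42 (Rex1), a zinc finger marker of naive cells, with a correlation of 0.66, Dppa5a, an RNA-binding protein of embryonic stem cells (0.64), and Klf2, a naive Krüppel-like factor (0.63). Nanog was nearest to Zfp42, Klf2 and Dppa5a, each at 0.36. Pou5f1 was nearest to Chchd10, which encodes a mitochondrial protein (0.58), Mkrn1, a ubiquitin ligase (0.55), and Dppa5a (0.54). Only Cbx3, which encodes a heterochromatin protein, at 0.26 and Actb, which encodes beta-actin, at 0.21 reached 0.2 with Sall4. The counts of genes at 0.2 or more were 241 for Sox2, 155 for Pou5f1, 51 for Nanog and 2 for Sall4, out of 4837 compared. In LBPXRS they were 5, 3, 6 and 0 of 4575. Zfp42 led there for Sox2 (0.33) and Nanog (0.30), followed in each case by Eif2s2, a translation initiation subunit (0.26 and 0.29), and then by Klf4 for Sox2 (0.25) and the kinase gene Sgk1 for Nanog (0.23). The nearest genes to Pou5f1 in LBPXRS were Eif5a (0.25), Ptma (0.23) and Gapdh (0.20), which are active in most growing cells.

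In LB cells that carried lineage markers, the 4 genes differed in how much of their level remained. Cells were called positive for a list at 3 or more UMIs of it after thinning, and compared with the 527 lineage-negative cells (872 CPM of Pou5f1, 217 of Sox2, 106 of Nanog and 102 of Sall4). All comparisons share those reference cells and come from 1 library. The lists hold none of the members, though a cell may be positive for several lists: 112 of the 125 nascent mesoderm cells were also streak-positive, and 69 of the 120 cells positive for the trophoblast list were also Hand1-positive.

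The 503 cells positive for primitive streak genes (T, Mixl1, Eomes, Fgf8 and others) had low Sox2 with much of the Pou5f1 kept. Sox2 was at 20.4 CPM (interval 17.9 to 23.0), 9.38% of its reference level and a log2 ratio of -3.35. Nanog was at 55.7 CPM (51.6 to 60), 52.7% of the reference, and Pou5f1 at 596 CPM (583 to 610), 68.3% of it. Sall4, at 100.5 CPM (94.95 to 106), was at 98.1% of its reference. Sox2 was the only member at least 2-fold lower, where 6.01% of all 7700 genes were, and no member was 2-fold higher, as 12.2% of genes were. A streak alone group held the 238 streak-positive cells with no UMI of the nascent mesoderm or Hand1 mesoderm lists. The other lists were not excluded. Pou5f1 at 762 CPM and Nanog at 77.6 CPM lay closer to the reference there, but Sox2 was at 28.0 CPM. Sall4 lay further from it, at 87.6 CPM, a log2 ratio of -0.22. Again Sox2 alone was at least 2-fold lower, beside 5.68% of 7654 genes, and no member 2-fold higher, beside 10.7%. The 275 cells with 1 to 2 streak UMIs, which may be positive for other lists, had 97.3 CPM of Sox2, 44.8% of the reference.

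Nascent mesoderm cells (125, by Mesp1, Mesp2, Tbx6 and others) were lower in 3 members. Pou5f1 was at 276 CPM (256 to 296), Sox2 at 9.58 CPM (6.26 to 14.0) and Nanog at 22.1 CPM (16.9 to 28.5), with log2 ratios of -1.66, -4.36 and -2.21. Sall4 was at 122 CPM (110 to 136), a log2 ratio of 0.25. These 3 of 4 members were at least 2-fold lower where 8.65% of 7724 genes were, and none was 2-fold higher where 14.8% were. Sox2, under 10 CPM in these cells, passed the filter through the lineage-negative cells alone, so the count supports nothing by itself.

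The 200 Hand1 mesoderm cells (Hand1, Hand2, Foxf1, Tbx20, Twist1 and Prrx2) had the lowest Pou5f1, Sox2 and Nanog of the 4 large classes, but not the lowest Sall4. That order is for 3 or more UMIs of each list, and the Sox2 interval overlapped those of nascent mesoderm and the trophoblast list. Pou5f1 stood at 220 CPM (207 to 233), a log2 ratio of -1.98. Sox2 stood at 5.08 CPM (3.35 to 7.39) and Nanog at 9.97 CPM (7.47 to 13.0), log2 ratios of -5.17 and -3.28. Sall4 was at 130.5 CPM (121 to 141), a log2 ratio of 0.35. Here too 3 of 4 members were at least 2-fold lower, with 7.74% of 7864 genes, and none 2-fold higher, with 17.2%. Sox2 and Nanog, both under 10 CPM here, passed the filter through the lineage-negative cells alone, so this count supports nothing by itself. In the 76 Hand1 mesoderm cells with no streak UMI, Pou5f1 was at 165 CPM, Sox2 at 4.24, Nanog at 5.65 and Sall4 at 100 CPM.

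In the 120 cells positive for the trophoblast list (Cdx2, Gata3, Krt7 and others, of which Cdx2 also marks posterior mesoderm) the levels of Pou5f1, Sox2 and Nanog had intervals that overlap those of nascent mesoderm, while Sall4 was higher. This depended on the threshold, since with at least 6 UMIs of the list the log2 ratios of Pou5f1 and Nanog were -2.39 and -3.53, against -1.58 and -2.12 in nascent mesoderm. Pou5f1 was at 276 CPM (258 to 294), Sox2 at 9.96 (6.86 to 14.0), Nanog at 17.5 (13.3 to 22.6) and Sall4 at 151 CPM (138 to 165), a log2 ratio of 0.56 for the last. There 6.85% of 7859 genes were at least 2-fold lower, as were 3 of the 4 members, and 17.6% were 2-fold higher, as was no member. Again Sox2, under 10 CPM there, passed the filter through the lineage-negative cells alone, so the count supports nothing by itself. Only 16 cells were positive for endoderm genes and 7 for fibroblast genes, all 7 also Hand1-positive, and 0 of 1666 for neural genes. The 16 endoderm cells had 43 Pou5f1 UMIs (107 CPM), 2 Sox2 UMIs and 2 Nanog UMIs.

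**Figure D4:**
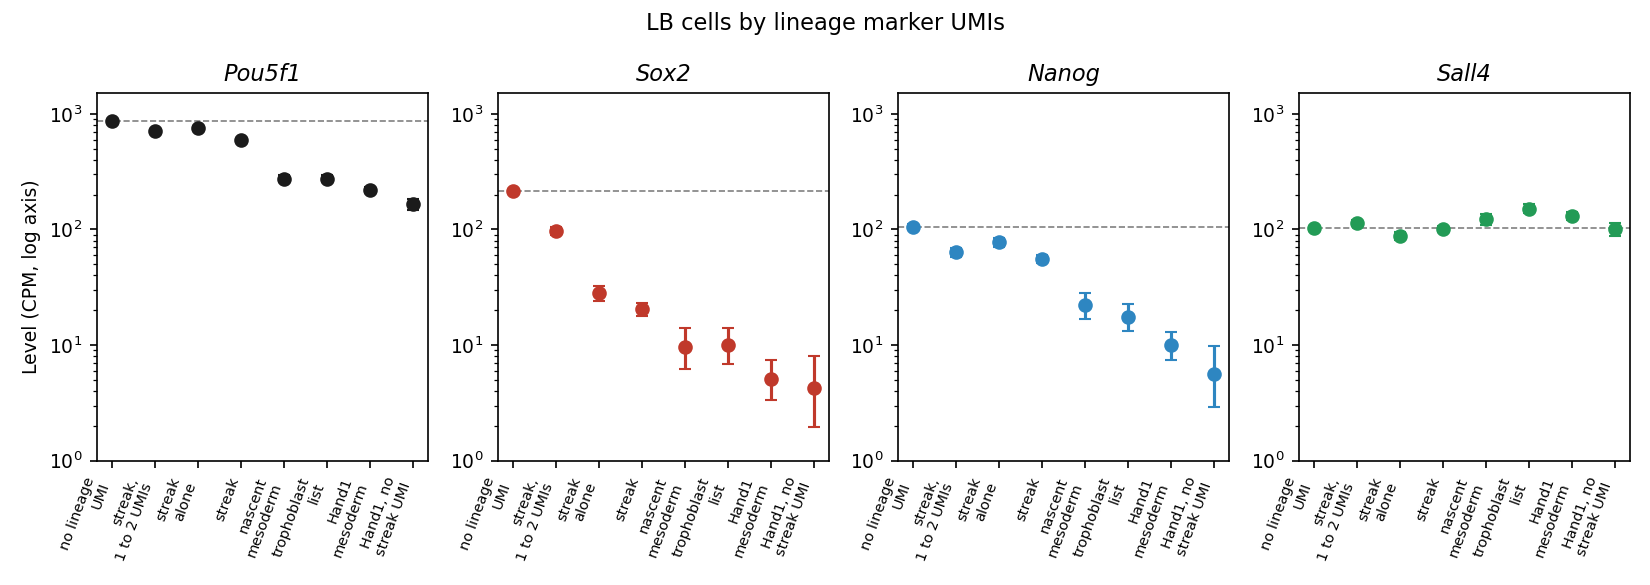
Level in CPM (log axis) of each gene in LB cells grouped by lineage marker UMIs, from 527 cells with none to 76 Hand1 mesoderm cells with no streak UMI; points are pooled values, error bars exact 95% Poisson intervals, and the dashed line the level in lineage-negative cells. Groups overlap in cells. The streak alone group is streak-positive with no UMI of the nascent mesoderm or Hand1 mesoderm lists. Sox2 is already at 28.0 CPM in that group, Pou5f1 and Nanog are lower mainly in the mesoderm groups and the trophoblast-list cells, and Sall4 stays between 87.6 and 151 CPM.

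Very few LBPXRS cells passed the same marker thresholds: 9 for streak, 1 for nascent mesoderm, 0 for Hand1 mesoderm, 34 for trophoblast, 3 for endoderm, 3 for fibroblast and 40 for neural genes, of 2509. The 34 trophoblast-list cells had 891 CPM of Pou5f1, 210 of Sox2, 179 of Nanog and 69.5 of Sall4, beside the 1003, 220, 163 and 55.8 CPM of the 948 lineage-negative LBPXRS cells. In the 40 cells positive for neural genes Sox2 was at 344 CPM.

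Clusters built without the 4 genes placed the levels in cell groups named from marker lists. Since the clusters use other genes of the same cells, their levels are descriptions. In LB, Pou5f1 was highest in the formative or primed pluripotent-like cluster of 262 cells (1016 CPM, interval 993 to 1040), above the naive pluripotent-like cluster 1 of 604 cells (921 CPM, 906 to 935). It then lay at 701 CPM in the trophoblast-like cluster of 62 cells, 687 CPM in naive pluripotent-like cluster 5 (158 cells), 660 CPM in the primitive streak-like cluster (264 cells), and 141 CPM in the mesoderm-like cluster (345 cells). The intervals of the trophoblast-like cluster, naive-like cluster 5 and the streak-like cluster overlap one another. The 62 trophoblast-like cells are a different set from the 120 cells positive for the trophoblast list, whose Pou5f1 was at 276 CPM.

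Sox2 followed another order. It was at 233 CPM and 211 CPM in the naive-like clusters, with intervals that overlap at their edges, at 65.7 CPM (59.9 to 71.9) in the formative-like cluster, 26.9 CPM in the streak-like one, and 6.25 and 6.28 CPM in the mesoderm-like and trophoblast-like clusters. The formative-like cluster thus had the highest Pou5f1 of the named LB clusters, with Sox2 far below the naive-like ones. Nanog was at 118 and 111 CPM in the naive-like clusters, 71.3 CPM in the streak-like, 60.7 CPM in the formative-like, 21.8 CPM in the trophoblast-like and 10.5 CPM in the mesoderm-like cluster. The intervals of the streak-like and formative-like clusters overlapped for Nanog. Sall4 was highest in the mesoderm-like cluster (130 CPM) and lowest in naive-like cluster 5 (75.6 CPM, 67.3 to 84.7). The latter interval overlaps that of the streak-like cluster (81.6 to 97.0). Both ends changed at Leiden resolution 1, where an unnamed cluster of 111 cells was highest (142 CPM) and a streak-like one lowest (73.8 CPM).

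The 6 LBPXRS clusters met no naming rule. Pou5f1 lay between 945 and 1071 CPM in clusters 1 to 5. In cluster 2, 791 cells led by Gata2, Sox2 was at 147 CPM, Nanog at 103 CPM and Sall4 at 41.4 CPM, against 222 to 291, 180 to 236 and 55.2 to 73.3 CPM in clusters 1, 3, 4 and 5. Cluster 6, the 76 cells with few mitochondrial UMIs and a median depth of 3282.5 UMIs, had 460 CPM of Nanog and 79.5 of Sox2. Without it, the log2 ratio of the highest to the lowest cluster was 1.18 in place of 2.14 for Nanog, 0.98 in place of 1.86 for Sox2 and 0.18 in place of 0.50 for Pou5f1. Since Gata2 leads cluster 2, a split of the cells by Gata2, chosen after the clusters were seen, restates that difference by gene. In 2167 cells with no Gata2 UMI, 263 with 1 to 2 and 79 with at least 3, Sox2 was at 250, 144 and 96.0 CPM. Nanog was at 189, 102 and 54.0 CPM in the same groups, and Pou5f1 at 1000, 947 and 900 CPM. GATA2 is a zinc finger factor of blood and trophoblast. Splits by other trophoblast genes differed. In 192 cells with 1 to 2 Gata3 UMIs Sox2 was at 256 CPM and Nanog at 206 CPM, against 232 and 173 CPM in 2312 cells with none, and in 184 cells with 1 to 2 Esx1 UMIs they were at 215 and 193 CPM, against 236 and 174 CPM in 2322 cells. With 1 to 2 Ascl2 UMIs (289 cells) they were at 205 and 152.5 CPM, against 238 and 179 CPM in 2217 cells.

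**Figure D5:**
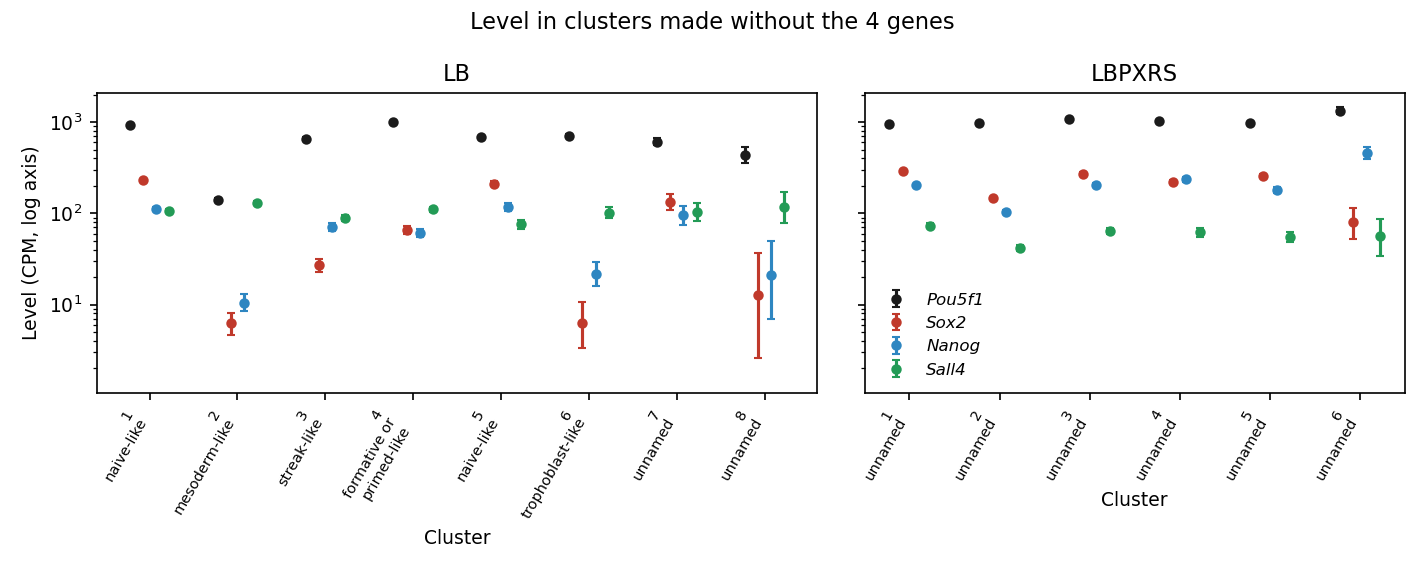
Level in CPM (log axis) of the 4 genes in the 8 LB and 6 LBPXRS clusters, built without these genes; points are pooled values and error bars exact 95% Poisson intervals. In LB the mesoderm-like cluster 2 is lowest for Pou5f1 (141 CPM) and highest among named clusters for Sall4 (130 CPM), and in LBPXRS cluster 2 is lower in Sox2 (147 CPM) and Nanog (103 CPM) than clusters 1, 3, 4 and 5.

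Genes of the same network were read from fixed lists, as counts of genes at least 2-fold higher or lower in LBPXRS than in LB. Of 12 naive partners of the core factors, 7 were at least 2-fold higher and 1 lower, beside 7.98% and 10.4% of all genes, with a median log2 ratio of 1.15 beside -0.17 over all genes. Prdm14 and Tet2, 2 of the 7, passed the filter through LBPXRS alone. Klf4, which like KLF2 binds beside the core factors, stood at 38.1 CPM in LB and 212 CPM in LBPXRS. Tfcp2l1, a naive factor downstream of LIF, stood at 21.5 and 102 CPM, and Esrrb, a nuclear receptor that can stand in for NANOG, at 23.1 and 62.6 CPM. Dppa3 (Stella) was the one lower, at 126 and 38.9 CPM. Zfp42 and Klf2, which were among the 3 genes most like Sox2 in LB, had log2 ratios of 0.36 and 0.24. Against lineage-negative LB cells these directions turned, since Zfp42 stood at 743 CPM and Klf2 at 498 CPM there, above the 515 and 337 CPM of LBPXRS. Esrrb (43.1 CPM) and Nr0b1 (24.3 CPM, against 32.4 CPM in LBPXRS) were less than 2-fold apart in that comparison.

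Known targets of POU5F1 and SOX2 divided, with 2 of 11 at least 2-fold higher and 3 lower, beside 7.98% and 10.4% of all genes, and a median log2 ratio of -0.23. Fgf4, the textbook target of the joint site, stood at 39.5 CPM in LB and 205 CPM in LBPXRS, and Spp1 (osteopontin) at 79.1 and 671 CPM. Among the lower ones, Utf1, a chromatin factor, stood at 332 and 74.3 CPM. Lefty1, an antagonist and target of NODAL, stood at 69.0 and 0.212 CPM. Of 19 NuRD subunits and cofactors, 4 were at least 2-fold lower in LBPXRS (L1td1, Mta1, Gatad2a and Arid3b, with log2 ratios from -1.26 to -1) and 1 higher (Wdr5, 1.03), beside 10.4% and 7.98% of all genes. Under TMM scaling 1 of the 19 was lower. The list had a median log2 ratio of -0.23, beside -0.17 over all genes. Among core NuRD subunits Chd4 and Mbd3 had log2 ratios of -0.86 and -0.78, Hdac1, Mta2 and Rbbp4 of 0.07, 0.15 and 0.33, and Hdac2 of 0.58.

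Among factors known to repress or oppose the members, 2 of 4 with enough UMIs were at least 2-fold lower in LBPXRS, beside 10.4% of all genes. Both passed the filter through their LB level alone, so the count supports nothing by itself. Cdx2 stood at 45.2 and 0.0193 CPM and Eomes at 12.73 and 1.33 CPM. Of 5 SOX genes with enough UMIs, 1 was at least 2-fold higher (Sox21, 0.308 and 13.5 CPM) and 2 lower (Sox4 and Sox11), beside 7.98% and 10.4% of all genes, though Sox21 and Sox11 passed the filter through 1 library alone. Pou3f1 (Oct6), a formative marker, was at 26.8 and 2.53 CPM. Sall1, the only other SALL gene at 10 CPM or more, had a log2 ratio of -0.74.

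Within LB the same lists were counted in the lineage classes. In streak-positive cells 9 of 11 naive partners with enough UMIs and 7 of 11 targets were at least 2-fold lower than in lineage-negative cells, and in Hand1 mesoderm cells 10 of 11 and 10 of 11 were, beside 6.01% and 7.74% of all genes. Most of these genes passed the filter through the lineage-negative cells, where they are high, so the counts support nothing by themselves. In streak-positive cells 1 of the 11 targets, Lefty1, was at least 2-fold higher (118 against 54.0 CPM), beside 12.2% of all genes. Zfp42 stood at 743 CPM in lineage-negative, 33.7 CPM in streak-positive and 16.4 CPM in Hand1 cells. For Fgf4 the levels were 72.6, 4.20 and 3.01 CPM. Of 19 NuRD subunits and cofactors, 0 were at least 2-fold lower in streak cells and 2 in Hand1 cells, namely L1td1 and Rif1, and 1 was higher in both, Arid3b, beside 12.2% and 17.2% of all genes higher. Cdx2, whose low reference level follows from the choice of cells with no UMI of its list, was at 0.477, 62.3 and 195 CPM across the 3 groups, and Sox11, a SOX gene of early mesoderm and nerve, at 12.9, 52.7 and 110 CPM. Sox15, a SOX gene close to Sox2 in its binding domain and made in embryonic stem cells, was at 45.0, 8.81 and 2.45 CPM.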

How the data were processed

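The 2 libraries (LB and LBPXRS, 1 sample each) used 10x Genomics 3′ v2 kits, per the labels' protocols. The deposited values are UMI counts per gene and cell barcode, which the authors obtained from Cell Ranger 4.0.0 (named in the file headers) on build mm10 per the submitters' processing notes. Annotation and strand settings are not given in the sources used here. Cells with at least 1000 genes and at most 10% mitochondrial UMIs were kept (225 and 406 barcodes left out). Scrublet in scanpy 1.11.5 marked 12 (0.673%) and 14 (0.518%) cells, which were kept, with their removal as an alternative.

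UMIs were summed over cells and scaled to CPM, and ratios used a pseudocount of 1. TMM came from edgeR 4.0.16. Poisson and Clopper-Pearson intervals are exact and cover counting error only. Shares, Fano factors and correlations are means over 100 thinnings of the member counts (10 for the likeness ranking), a choice made after a single thinning gave 40.2% for Nanog in LB where the mean is 43.5%. Lineage classes come from 1 thinning. Clusters used Leiden at resolution 0.5 on 2000 variable genes without the members. An "-like" name needed at least 3 raised markers of a list, and more than of any other list. The median log2 ratio over that list had to be at least 1, with no other list holding more of the 10 leading genes. Shallow clusters also needed a marker of the list among those leading genes. Thinning, pooled fold changes, Fano factors and correlations were checked on simulated data, and the interval code was not.

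The members and gene lists were chosen with earlier results of these data known. The genes named were the members, the listed genes, genes whose symbols begin like a member's, and the 3 genes most correlated with each member at 0.2 or more; Gata2 and the splits by single marker genes were added later. The values of 1 listed gene are not reported here.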

Additional observations from a re-analysis of the deposited data

How the results depend on the processing

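No paired analysis was possible because each condition has 1 library, and leaving out a replicate was not possible either. Of 232 comparisons of a value with an alternative, 172 stayed within the counting interval or within 1.5 times a count, and 60 moved. No member level, share gap or lineage ratio that stood beyond its interval changed sign, and the Sall4 correlations with Pou5f1 and Nanog in LB lay between -0.02 and 0.00. TMM scaling gave log2 ratios of 0.62, 1.06, 1.38 and -0.68 for Pou5f1, Sox2, Nanog and Sall4, and 1 NuRD gene lower. Against LB cells with no lineage UMI they were 0.18 for Pou5f1, 0.09 for Sox2 and 0.74 for Nanog. Weighting cells equally gave 0.48 for Pou5f1 and 0.99 for Sox2. All deposited barcodes, a pseudocount of 0.1, removal of marked doublets and removal of cells under 0.5% mitochondrial UMIs moved no member ratio beyond its interval.

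Shares of cells depend on depth. At 5000 UMIs the gaps were 12.86 points for Pou5f1, 27.75 for Sox2 and 25.88 for Nanog, and without thinning 5.24, 30.02 and 25.03. A single thinning put the Nanog gap at 34.69 points, and another seed moved no gap. Fano factors at 5000 UMIs were 1.93, 1.64, 1.33 and 1.20 in LB for Pou5f1, Sox2, Nanog and Sall4, and 1.31, 1.31 and 1.32 in LBPXRS for the first 3. Correlations there were 0.27 (Pou5f1 and Sox2), 0.21 (Pou5f1 and Nanog) and 0.19 (Sox2 and Nanog) in LB, and 0.12 (Sox2 and Nanog) and 0.07 (Sox2 and Sall4) in LBPXRS.

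With at least 2 lineage UMIs, log2 ratios to lineage-negative cells were -3.05 for Sox2 in streak cells, -1.53 and -3.65 for Pou5f1 and Sox2 in nascent mesoderm, -1.70, -4.72 and -2.75 for Pou5f1, Sox2 and Nanog in Hand1 mesoderm, and -1.22, -3.38, -1.97 and 0.39 for the 4 genes in trophoblast-list cells. With at least 6 they were -0.61 for Pou5f1 in streak cells, -5.13 for Sox2 and 0.47 for Sall4 in nascent mesoderm, -2.54 for Pou5f1 in Hand1 mesoderm, and -2.39, -3.53 and 0.74 for Pou5f1, Nanog and Sall4 in trophoblast-list cells.

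The log2 ratio of the highest to the lowest cluster at Leiden resolution 1 was 3.8 for Pou5f1 and 4.26 for Nanog in LB, and 1.10, 3.21 and 1.83 for Pou5f1, Nanog and Sall4 in LBPXRS. That LB Nanog value rests on 1 UMI in a cluster of 19 cells with a median of 0.034% mitochondrial UMIs. Outside it, Nanog in LB lay between 6.96 and 131 CPM. The LBPXRS values rest on clusters of 76 and 27 cells with medians of 0.042% and 0.023%. Without them, Nanog lay between 78.7 and 244 CPM, Sall4 between 41.3 and 85.2 CPM and Pou5f1 between 620 and 1123 CPM. At resolution 0.5, leaving out clusters under 0.5% mitochondrial UMIs gave log2 ratios of 0.18, 0.98 and 1.18 for Pou5f1, Sox2 and Nanog in LBPXRS. With no filter on low values, 4 repressors were lower, 2 SOX genes higher and 4 lower, and 1 SALL gene lower, beside 1117 genes higher and 1561 lower in all. Apart from depth and cell choice as built into these alternatives, the causes were not tested.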

Other observations

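In LBPXRS cells that carried UMIs of the neural gene Olig2 or the streak gene Gsc, Sox2 and Nanog were higher than in cells without them, although these splits by single genes were chosen after the lists were seen. Sox2 was at 218 CPM in 1885 cells with no Olig2 UMI, 281 CPM in 591 cells with 1 to 2 and 328 CPM in 33 cells with at least 3. Nanog was at 164, 209 and 209 CPM and Pou5f1 at 989, 998 and 1001 CPM in the same groups. In 289 cells with 1 to 2 Gsc UMIs, Sox2 was at 273 CPM and Nanog at 206 CPM, against 229 and 172 CPM in 2212 cells with none.

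Single streak and mesoderm genes separated the members in LB as well. The 234 cells with at least 3 T (Brachyury) UMIs had 702 CPM of Pou5f1, 19.1 of Sox2, 56.01 of Nanog and 80.9 of Sall4. Other streak genes gave other levels, with 269 CPM of Pou5f1, 3.74 of Sox2, 23.4 of Nanog and 111 of Sall4 in 39 cells with at least 3 Mixl1 UMIs, and 160 CPM of Pou5f1, 8.10 of Sox2, 20.3 of Nanog and 99.2 of Sall4 in 21 cells with at least 3 Eomes UMIs. The Sox2 and Sall4 intervals of the Eomes cells overlap those of the T cells. The 267 cells with at least 3 Fgf8 UMIs had 620 CPM of Pou5f1, 23.2 of Sox2, 69.9 of Nanog and 103 of Sall4. In the 86 cells with at least 3 Mesp1 UMIs, Pou5f1 was at 297.5 CPM, Sox2 at 9.40, Nanog at 21.6 and Sall4 at 138 CPM.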
